A study of Mus musculus with 2 samples.

Results

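Period length in the mammalian circadian clock depends on enzymes that act on the PER and CRY repressor proteins, and 9 genes of this kind were examined in the suprachiasmatic nucleus (SCN), the seat of the central pacemaker in the hypothalamus. They were taken by symbol from the deposited gene table and comprise the casein kinase genes Csnk1d, Csnk1e, Csnk1a1 and Csnk2a1, the glycogen synthase kinase 3 genes Gsk3a and Gsk3b, and the F-box genes Fbxl21, Btrc and Fbxw11. All 9 symbols had exactly 1 row, out of 24229 genes in the table. Mice had been entrained to a short (ST) or to a normal (NT) T-cycle, a T-cycle being a light-dark schedule of set period. Both groups were wild type C57BL/6 mice of postnatal day 68, with 8 mice allotted to each schedule. All of them spent 7 days in constant darkness before the 4 weeks of entrainment, and SCN tissue was collected at circadian time 4 h, following 5 more days of darkness. Each group gave 1 library of polyadenylated RNA, prepared with a nuclear or cytoplasmic RNA kit. How long each T-cycle lasted, which RNA fraction was kept and how many mice entered a library are not stated in the sources used.

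In the clock feedback loop, PER and CRY proteins accumulate, enter the nucleus and repress their own transcription. Casein kinase 1 delta and epsilon, encoded by Csnk1d and Csnk1e, phosphorylate PER proteins, and phosphorylated PER is recognised by the F-box proteins beta-TrCP1 (Btrc) and beta-TrCP2 (Fbxw11), which direct it to the proteasome. FBXL21 is an F-box protein that binds CRY, and mutations of casein kinase 1 change the period of behavioural rhythms in rodents. Much of this control acts on protein activity and stability, which RNA levels do not measure.

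The ST library held 19476800 estimated counts and the NT library 24790727, of which the 9 genes took 25314 in ST and 32495 in NT. With 1 library per group there was no estimate of the spread between animals, and no p-value was computed. Every difference below therefore compares these libraries, not the T-cycles, and each interval is an exact 95% interval of the ratio that covers counting error only. Size factors by the median of ratios were 0.890 in ST and 1.12 in NT, and log2 ratios of ST over NT were taken on normalised counts plus 0.5. A gene was called measured at a mean normalised count of at least 50, which held for 14343 genes and for all 9 of this set. In bulk tissue, fewer cells of a type and less RNA per cell cannot be told apart.

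RefSeq promoter sequences, from 250 bases before to 50 bases after the transcription start in the build GRCm38.p6, were found for 6 of the 9 genes. Csnk1d and Btrc had no entry, and the promoter of Csnk1a1 was not used here. Below are the promoters of Fbxl21, the gene with the largest difference between the libraries, of Fbxw11, an F-box gene near equality, and of the paralogs Gsk3a and Gsk3b. Capitals mark the GC box GGGCGG and the CCAAT box, each on either strand (reverse complements CCGCCC and ATTGG), and no base lay in both motifs.
Fbxl21 (chr13:56522222-56522521, plus strand): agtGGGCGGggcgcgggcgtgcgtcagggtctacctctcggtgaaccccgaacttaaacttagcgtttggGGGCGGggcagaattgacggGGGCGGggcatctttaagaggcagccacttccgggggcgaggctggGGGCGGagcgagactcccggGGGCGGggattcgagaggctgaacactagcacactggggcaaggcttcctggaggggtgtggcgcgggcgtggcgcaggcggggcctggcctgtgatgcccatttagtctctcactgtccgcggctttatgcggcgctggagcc
Fbxw11 (chr11:32642305-32642604, plus strand): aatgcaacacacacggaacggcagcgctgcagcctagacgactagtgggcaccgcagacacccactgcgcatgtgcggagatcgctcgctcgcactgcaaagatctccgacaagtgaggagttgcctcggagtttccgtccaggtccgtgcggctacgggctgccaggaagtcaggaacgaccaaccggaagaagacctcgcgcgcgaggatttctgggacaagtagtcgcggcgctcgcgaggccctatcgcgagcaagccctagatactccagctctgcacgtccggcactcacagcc
Gsk3a (chr7:25237802-25238101, minus strand): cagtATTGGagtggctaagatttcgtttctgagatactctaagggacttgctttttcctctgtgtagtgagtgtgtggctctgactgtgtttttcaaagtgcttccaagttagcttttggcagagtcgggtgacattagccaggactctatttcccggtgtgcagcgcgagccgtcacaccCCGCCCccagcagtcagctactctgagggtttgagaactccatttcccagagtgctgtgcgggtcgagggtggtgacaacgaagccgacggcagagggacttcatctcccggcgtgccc
Gsk3b (chr16:38088751-38089050, plus strand): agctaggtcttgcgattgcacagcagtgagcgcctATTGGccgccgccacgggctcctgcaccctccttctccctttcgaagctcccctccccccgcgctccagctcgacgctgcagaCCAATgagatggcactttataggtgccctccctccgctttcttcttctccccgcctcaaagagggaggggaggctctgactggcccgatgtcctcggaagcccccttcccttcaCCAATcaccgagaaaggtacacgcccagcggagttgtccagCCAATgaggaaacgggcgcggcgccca

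The Fbxl21 promoter held 5 GC box matches and no CCAAT box, whereas the Gsk3b promoter held 4 CCAAT boxes and no GC box. Gsk3a had 1 match of each, and Fbxw11 had none of either. Csnk2a1 had 2 GC box matches, and the 4 Csnk1e entries, which overlap only in part, had 3 to 6. The GC box occurred in 35.7% and the CCAAT box in 37.4% of all 32851 promoters of this length. Searched on both strands, the 9 entries, which came from 6 genes, held no E-box CACGTG (7.15% of all promoters). Nor did they hold the E-prime box CACGTT (4.68%), the D-box TTATGTAA (0.938%) or the ROR half-site AGGTCA (16.3%). The cyclic AMP response element TGACGTCA (1.79%) was also absent. Absence from so few genes is not set apart from these shares. CpG dinucleotides, the sites of DNA methylation, numbered 27 in the Fbxl21 promoter, a count reached by 15.5% of all promoters, and the median over all promoters was 7. The Fbxw11 promoter held 31 CpG (reached by 10.6%), the Gsk3b promoter 21 (24.8%), the Csnk2a1 promoter 20 (26.5%) and the Gsk3a promoter 14 (36.3%). The Csnk1e entries ran from 21 (24.8%) to 54 (0.347%), so Fbxl21 was not the richest in CpG. Methylation itself was not measured in these libraries.

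All 9 genes were transcribed in both libraries, over a wide range of levels. On the deposited RPKM scale (reads scaled by gene length and by library total), Csnk1a1 was highest at 72.4 in ST and 75.9 in NT, and Fbxl21 lowest at 5.99 in ST and 6.98 in NT. The highest gene thus exceeded the lowest 12.1 times in ST and 10.9 times in NT. The order was the same in both libraries, namely Csnk1a1, Gsk3a, Csnk1d, Fbxw11, Gsk3b, Btrc, Csnk2a1, Csnk1e and Fbxl21. Only Csnk1d and Fbxw11 in the NT library (42.9 and 40.6 RPKM) had overlapping counting intervals among neighbours in that order. The place of Csnk1a1 depended on the gene length used. The deposited RPKM implied 3.37 kb for Csnk1a1 and 2.97 kb for Btrc, against 10.5 kb and 6.32 kb for the union of their GENCODE vM1 exons. Per kilobase of those exons, Csnk1a1 stood at 23.2 RPM in ST and 24.3 RPM in NT, at place 5 in the order of the set, and Btrc at 8.17 RPM in ST and 7.99 RPM in NT. For the other 7 genes the lengths of both sources were closer, 5.11 kb against 5.85 kb for Csnk1d being the widest gap.

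**Figure D1:**
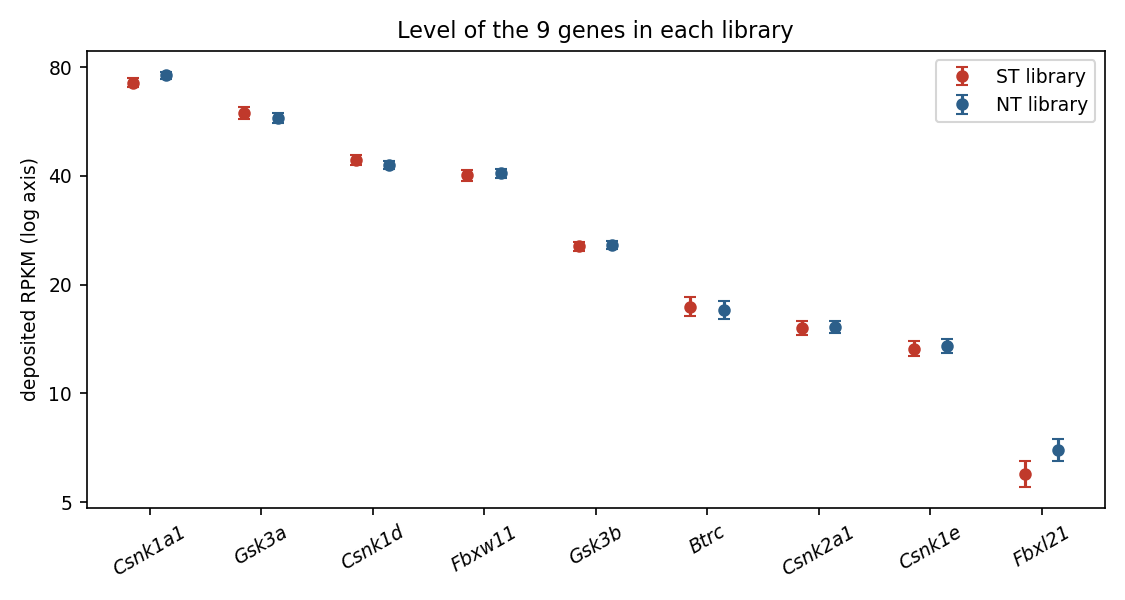
Level of each of the 9 genes on the deposited RPKM scale (log axis), with ST (red) left of NT (blue); bars are exact 95% Poisson intervals of the count, and each point is 1 library. The points of each gene nearly coincide except for Fbxl21 (5.99 in ST, 6.98 in NT) and, by less, Csnk1a1 (72.4 in ST, 75.9 in NT).

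Differences between the libraries were small. None of the 9 genes reached 2-fold, a size passed by 0.251% of measured genes, and none reached 1.2-fold, passed by 9.46%. Within 1.1-fold, a bound added after the values were seen, lay 8 of the 9, and 26.8% of measured genes lay outside it. The median log2 ratio was -0.03 over the 9 genes and -0.00 over all measured genes. The interval lay wholly below 1 for 2 of the 9, Fbxl21 and Csnk1a1, as for 10.2% of measured genes, and wholly above 1 for none, against 7.79%. Shares of so few genes are not set apart from that background. For each of the 9 genes the authors' deposited table gives an adjusted p of 1, and the lowest unadjusted p among them, 0.135, belongs to Fbxl21.

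**Figure D2:**
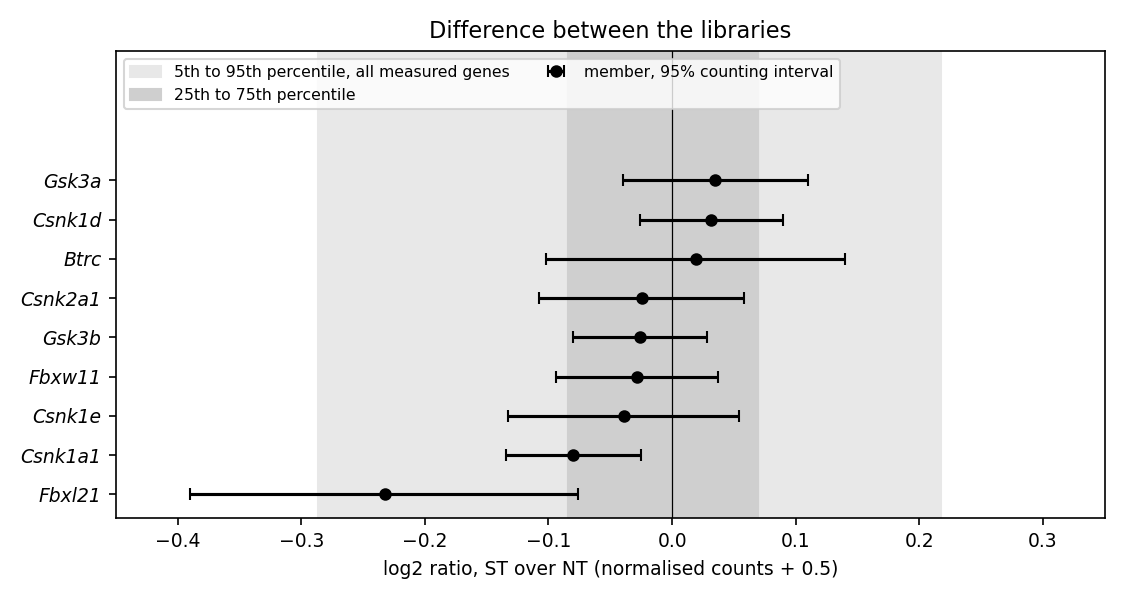
Log2 ratio of ST over NT for the 9 genes with exact 95% counting intervals (horizontal bars), over the 25th to 75th (dark grey) and 5th to 95th (light grey) percentiles of 14343 measured genes. Fbxl21 at -0.23 lies outside the dark band and inside the light one, and the other 8 genes lie inside the dark band.

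Gene positions from here on are in mm9, the build of the deposited table. Among the PER kinases, Csnk1d, on chromosome 11 (120820520 to 120852647, minus strand), had 4399 counts in ST and 5431 in NT. After scaling these were 4942 in ST and 4834 in NT, a fold of 1.02 (interval 0.982 to 1.06). Csnk1e, the gene mutated in the tau hamster, which has a short period, lies on chromosome 15 (79248286 to 79274349, minus strand). It had 1654 counts in ST and 2145 in NT, or 1858 in ST and 1909 in NT after scaling, a fold of 0.973 (0.912 to 1.04). Both intervals held 1, and they put the difference of Csnk1d between -1.78% and 6.39% and that of Csnk1e between -8.78% and 3.82%, as far as counting error goes.

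Csnk1d was the more abundant of this pair. Its RPKM was 44.2 in ST and 42.9 in NT, against 13.3 in ST and 13.5 in NT for Csnk1e. The level of Csnk1d over that of Csnk1e was 3.33 in ST and 3.17 in NT, and the ratio of these ratios was 1.05 (interval 0.973 to 1.13), which does not depend on the scaling of the libraries. Summed RPKM of both kinases was 57.5 in ST and 56.4 in NT, beside 63.3 in ST and 58.9 in NT for their substrates Per1, Per2 and Per3. Kinase RNA over Per RNA was therefore 0.908 in ST and 0.959 in NT, and the sums of the Per genes differed mainly through Per1. Both levels depend on gene length. Per kilobase of GENCODE exons, Csnk1d over Csnk1e was 2.91 in ST and 2.77 in NT. Kinase RNA over Per RNA was then 0.822 in ST and 0.869 in NT.

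Csnk1a1, encoding the constitutively active casein kinase 1 alpha, also known for priming beta-catenin for degradation, lies on chromosome 18 (61714993 to 61749035, plus strand). It had 4750 counts in ST and 6336 in NT, both whole numbers. Normalised counts were 5336 in ST and 5640 in NT, a fold of 0.946 (0.911 to 0.983). The interval was below 1, and 48.0% of measured genes lay at least as far from equality. Csnk1a1 made up 36.9% of the summed RPKM of 6 casein kinase 1 genes in ST and 38.2% in NT. Csnk1g2, a gamma member not counted among the 9, held 24.9% in ST and 24.4% in NT, and Csnk1d 22.5% in ST and 21.6% in NT. These shares and their order depend on the short deposited length of Csnk1a1. Per kilobase of GENCODE exons, Csnk1a1 made up 16.8% in ST and 17.5% in NT, below Csnk1g2 at 33.3% in ST and 33.0% in NT and Csnk1d at 27.9% in ST and 27.0% in NT.

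Csnk2a1 encodes a catalytic subunit of casein kinase 2, which phosphorylates PER2 and BMAL1, and lies on chromosome 2 (152052575 to 152107588, plus strand). The gene had 2089 counts in ST and 2682 in NT, with a fold of 0.983 (0.928 to 1.04). Its RPKM of 15.2 in ST and 15.3 in NT was near that of the other catalytic subunit gene, Csnk2a2, at 14.3 in ST and 13.7 in NT, and below that of the regulatory subunit gene Csnk2b, at 74.7 in ST and 73.9 in NT. Csnk2a1 thus gave 51.5% of the catalytic RPKM in ST and 52.8% in NT. The deposited lengths of Csnk2a2 and Csnk2b, 1.86 kb and 0.903 kb, were also shorter than their GENCODE exons, 3.77 kb and 2.16 kb. Per kilobase of those exons, Csnk2a1 gave 68.2% of the catalytic level in ST and 69.3% in NT, and Csnk2b was still the higher at 31.2 RPM in ST and 30.8 RPM in NT, against 15.1 RPM in ST and 15.3 RPM in NT for Csnk2a1.

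The GSK3 kinases phosphorylate several clock proteins, CRY2 and PER2 among them, and are inhibited by lithium, which lengthens period. Gsk3a, on chromosome 7 (26013277 to 26022870, minus strand), had 2619 counts in ST and 3226 in NT, a fold of 1.02 (0.973 to 1.08). Gsk3b, on chromosome 16 (38089087 to 38246170, plus strand), had 4886 counts in ST and 6278 in NT, a fold of 0.982 (0.946 to 1.02). The intervals of both held 1. Gsk3b had more counts than Gsk3a but a longer gene length, 9.82 kb against 2.25 kb, and per length Gsk3a was the higher at 59.8 RPKM in ST and 57.9 in NT, against 25.5 in ST and 25.8 in NT for Gsk3b. The level of Gsk3a over that of Gsk3b was 2.34 in ST and 2.24 in NT, with a ratio of ratios of 1.04 (0.978 to 1.11).

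The beta-TrCP genes differed little between the libraries. Btrc, on chromosome 19 (45438235 to 45604503, plus strand), had 1006 counts in ST and 1253 in NT, a fold of 1.01 and a difference between -6.83% and 10.2% by counting error. Fbxw11, on chromosome 11 (32542724 to 32646789, plus strand), had 3352 counts in ST and 4315 in NT, a fold of 0.980 (0.937 to 1.03). Fbxw11 gave 69.8% of their summed RPKM in ST and 70.5% in NT, and the level of Btrc over that of Fbxw11 was 0.433 in ST and 0.419 in NT. Both depend on the short deposited length of Btrc. Per kilobase of GENCODE exons, the share of Fbxw11 was 83.0% in ST and 83.4% in NT, and Btrc over Fbxw11 was 0.205 in ST and 0.199 in NT. The ratio of ratios, in which length cancels, was 1.03 (0.939 to 1.14). A transcript on the opposite strand within Btrc, AC126454.1, had 444 counts in ST and 505 in NT. Its GENCODE exons shared 0 bases with those of Btrc.

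Fbxl21 showed the largest difference of the 9 genes. FBXL21 is known to ubiquitinate CRY proteins, and its gene was described as enriched in the SCN. It lies on chromosome 13 (56623833 to 56639259, plus strand) and had 559 counts in ST and 829 in NT, both whole numbers. Normalised counts were 628 in ST and 738 in NT, so the ST value was 14.9% lower, and the interval of the difference ran from -23.7% to -5.14%. The log2 ratio of -0.23 was undercut by 7.52% of measured genes, and 11.9% lay at least as far from equality in either direction.

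Among 52 measured genes with an F-box symbol (Fbxl, Fbxo or Fbxw and a number), a set formed after the values had been seen, Fbxl21 had the lowest log2 ratio after Fbxo36. The value of Fbxo36 was -0.26, with an interval that held 1 (0.661 to 1.05) on only 125 counts in ST, against 189 in NT, while Fbxo45 followed at -0.22 (0.787 to 0.930). The interval lay below 1 for 2 of the 52, Fbxl21 and Fbxo45, and above 1 for 4, against 10.2% below and 7.79% above over all measured genes. Of the 52, 46 lay within 1.1-fold, a bound that 26.8% of measured genes passed, and their median was 0.01. By deposited RPKM in the ST library, Fbxw11 held place 5 and Fbxl21 place 40 among the 52.

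**Figure D3:**
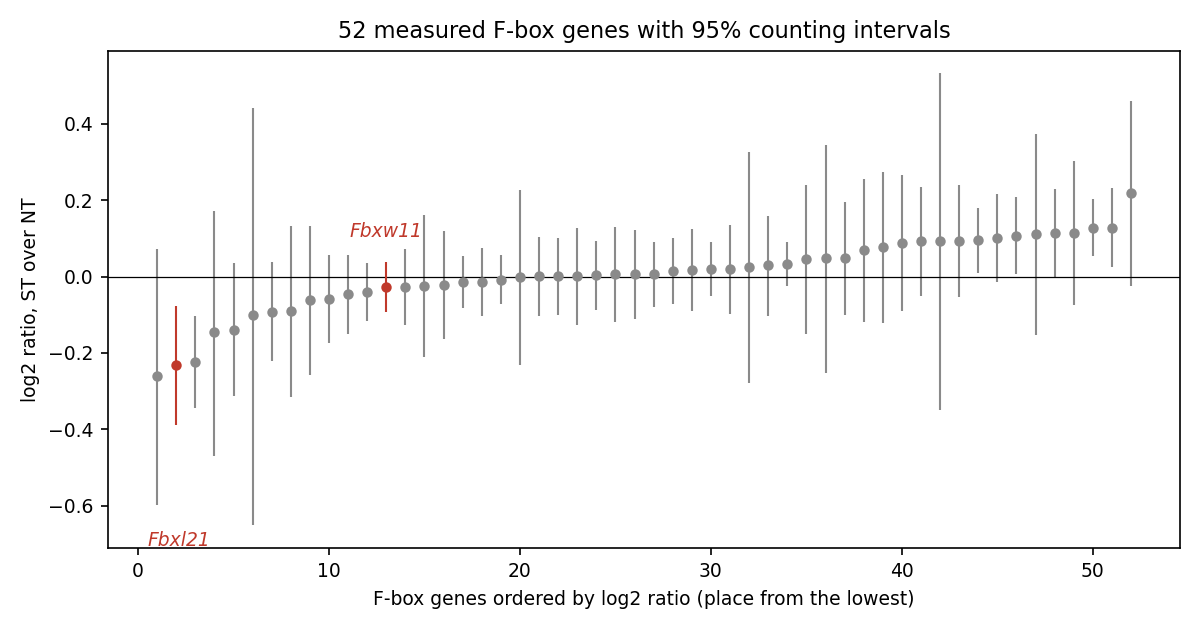
Log2 ratios of ST over NT for the 52 measured genes named Fbxl, Fbxo or Fbxw, a naming that leaves out Btrc, in order of their ratio, with exact 95% counting intervals. Fbxl21 (red, -0.23) stands at place 2 from the left with an interval below 0, while Fbxw11 (red, -0.03) has an interval that holds 0.

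The scatter of all measured genes shows where the 9 genes stand by depth. Mean normalised counts ran from 683 for Fbxl21 to 5539 for Gsk3b. The upper bound of the interval exceeded the lower 1.24 times for Fbxl21, 1.18 times for Btrc and 1.08 times for Gsk3b, so that differences are bounded most tightly for the most deeply counted genes.

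**Figure D4:**
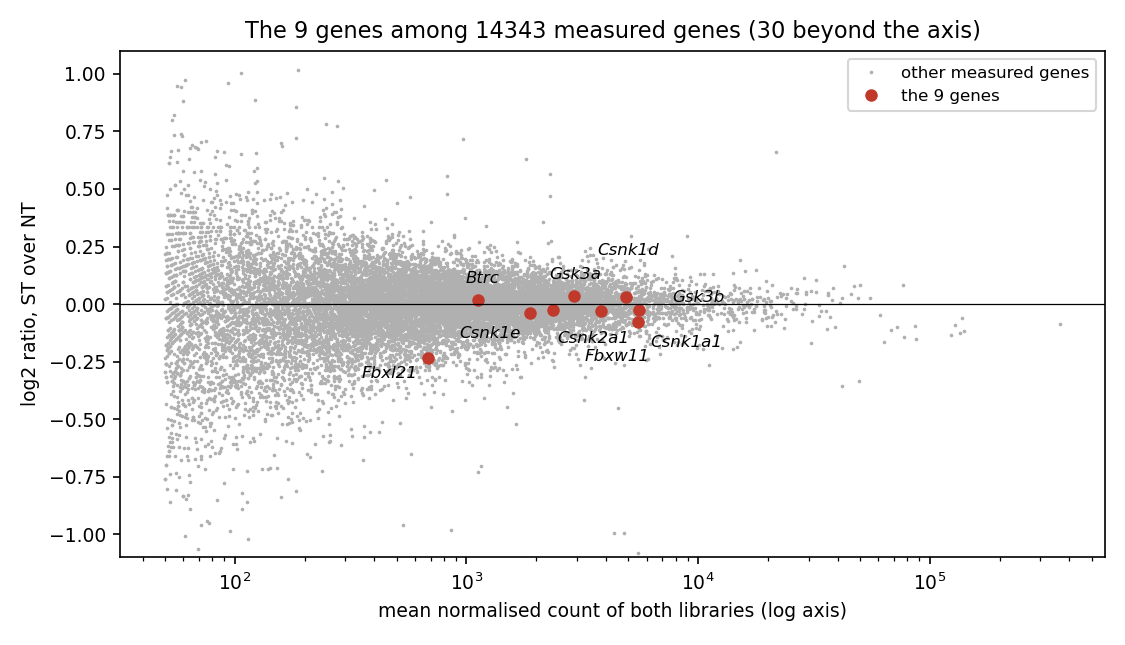
Log2 ratio of ST over NT against mean normalised count (log axis) for 14343 measured genes (grey), with the 9 genes in red; 30 genes lie beyond the vertical axis. Fbxl21, the least counted of the 9, lies lower than the other 8, at -0.23.

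Substrates and partners of these enzymes were described from lists of known members, with intervals of the fold in parentheses. Of the 5 PER and CRY genes, Per1 had a log2 ratio of 0.21 (30.9 RPKM in ST and 26.5 in NT), and the other 4 lay near 0, Cry2 at -0.00, Per2 at -0.01, Cry1 at -0.01 and Per3 at -0.02. Over 6 lists of partners, 48 of 50 genes were measured, and 0 of them reached 2-fold, a size passed by 0.251% of measured genes. The median log2 ratio of the 48 was 0.02, with 30 higher and 18 lower in ST. Over all 14343 measured genes, 7048 were higher and 7295 lower. The interval lay above 1 for 8 of the 48 and below 1 for 3, against 7.79% and 10.2% of measured genes. Within 1.1-fold lay 45 of the 48, and 26.8% of measured genes lay outside that bound.

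Further casein kinase subunit genes had a median log2 ratio of 0.00 over 5 genes. Csnk1g1 was at 0.15 (fold interval 1.01 to 1.22), Csnk2a2 at 0.05, Csnk2b at 0.00, Csnk1g2 at -0.00 and Csnk1g3 at -0.09. GSK3 regulators had a median of 0.07 over 6 genes, and Sgk1, a glucocorticoid-induced kinase that can phosphorylate GSK3, was at 0.34 (1.17 to 1.37), with 12.7 RPKM in ST and 9.97 in NT. Sgk1 was also the only one of the 48 partners past 1.2-fold, a size passed by 9.46% of measured genes. The scaffold gene Axin1 and the kinase gene Akt2 were both at 0.10, with intervals that held 1.

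Components of SCF and cullin ligases, the complexes in which F-box proteins work, had a median of 0.01 over 11 genes. The ubiquitin-like modifier Nedd8 was at 0.13 (1.0008 to 1.19) and the F-box gene Fbxw7 at 0.11 (1.005 to 1.16). The RING subunit Rbx1 was at 0.11 (1.005 to 1.15), and these 3 intervals lay only just above 1. Lower values were those of Cul4b at -0.11 (0.861 to 0.991), the scaffold Cul1 at -0.03 and the adaptor Ddb1 at -0.01. Among 4 deubiquitinase genes the median was 0.02, with Usp2 at 0.08, Usp7 at 0.05, Usp14 at 0.00 and Usp9x at -0.01.

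Phosphatase catalytic subunit genes, among them those of protein phosphatase 1, which dephosphorylates PER2, had a median of -0.01 over 6 genes. Ppp5c was at 0.12 (1.02 to 1.15), Ppp1ca at 0.06 and Ppp1cc at 0.02, whereas Ppp1cb was at -0.09 (0.910 to 0.973), Ppp2cb at -0.06 and Ppp2ca at -0.04. The 16 other kinase and ligase genes of clock proteins had a median of 0.02. The stress kinase gene Mapk8, encoding JNK1, was lowest at -0.16 (0.829 to 0.966), with Dyrk1a, a CRY2 kinase, at -0.06 and Mapk9 at -0.04. Of the ligase genes, Siah2 was at 0.11 (0.917 to 1.27), Mycbp2 at 0.11 (1.04 to 1.11) and Huwe1 at 0.08 (1.03 to 1.08).

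Checked against its markers, the tissue held all 8 listed SCN genes above the count filter, with Avp at 656 RPKM in ST and 563 in NT. That list varied more than the 9 genes. Its log2 ratios had a median of -0.07 and ran from -0.29 for Prok2 to 0.21 for Avp. Between them lay Nms at -0.25, Vip at -0.24, Six6 at -0.09, Lhx1 at -0.06, Vipr2 at 0.08 and Rgs16 at 0.16. Pan-neuronal markers had a median of -0.01 over 8 genes, with Syp, the most abundant of them, at 0.03. Measured markers of astrocytes, microglia, oligodendrocytes, endothelium with mural cells and meninges numbered 37. Of these, 36 were lower in ST, the interval was below 1 for 33, and the median was -0.32. Over all measured genes, 7295 of 14343 were lower in ST, and 10.2% had an interval below 1. Summed RPKM of the 37 markers was 1730 in ST and 2033 in NT, and that of the pan-neuronal markers 998 in ST and 990 in NT. The part of these marker differences in the values of Fbxl21 and Csnk1a1 was not tested.

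Non-neuronal lists differed among themselves in size, and their members were not uniform. Within 1.1-fold lay 3 of 6 astrocyte markers, with Aldh1l1 at 0.05, and 2 of 9 microglia markers, but no measured marker of the other lists. The median log2 ratio was -0.13 for astrocytes (Gfap -0.20), -0.27 for microglia (C1qa -0.27), -0.30 for oligodendrocytes, -0.33 for endothelium and mural cells (Rgs5 -0.32) and -0.80 for meninges (Dcn -0.65). The counting interval of Fbxl21, at -0.23, took in the medians of astrocytes, microglia, oligodendrocytes and endothelium with mural cells, but not that of meninges. Of the SCN genes, Vip at -0.24, Nms at -0.25, Prok2 at -0.29 and Six6 at -0.09 also lay within that interval. Lhx1, Vipr2, Rgs16 and Avp lay above it. Whether these values are linked was not tested.

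**Figure D5:**
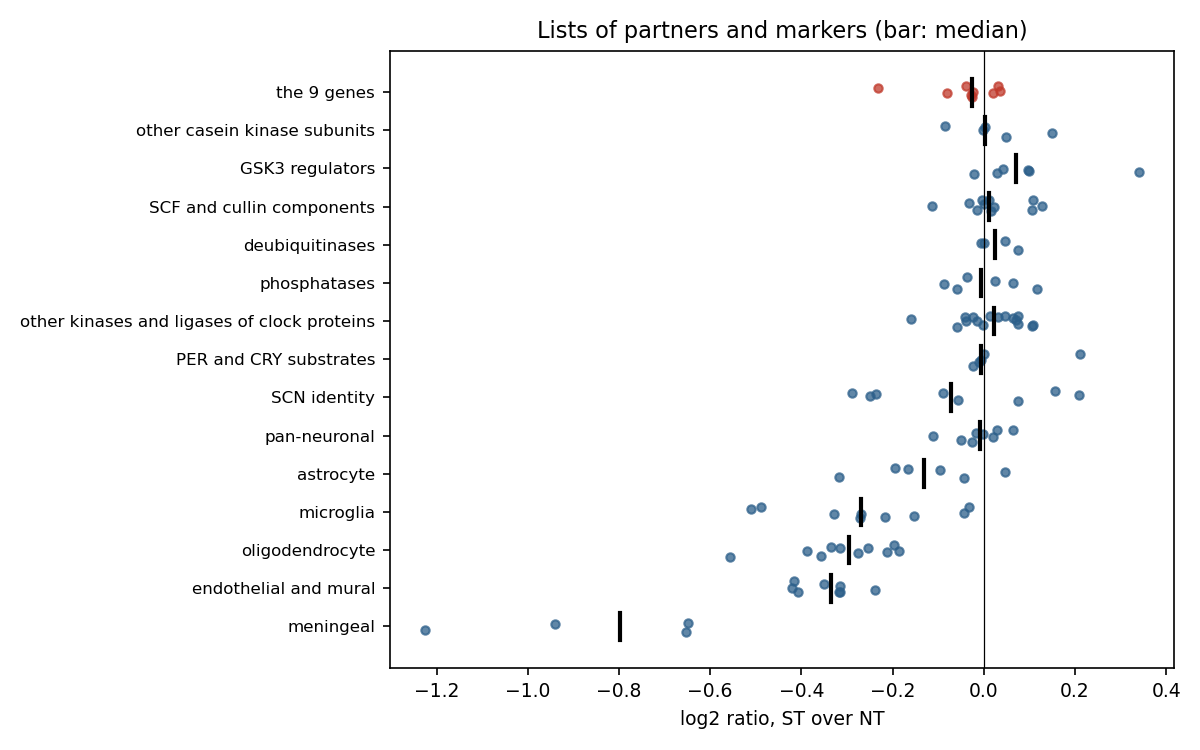
Log2 ratios of ST over NT for the 9 genes (red) and for measured members of lists of partners and cell markers (blue), each point 1 gene, with the list median as a black bar; points are spread vertically for legibility. The 9 genes and their partners centre near 0, whereas lists of non-neuronal markers lie to the left, meninges farthest at a median of -0.80.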

How the data were processed

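Expression was measured in 1 ST and 1 NT library. Tools named per the submitters' processing notes are CASAVA 1.8.2, TopHat 1.2 and DESeq, and the build is mm9; their roles, the counter and its annotation are not stated in the sources used. The deposited values, per the file headers, are estimated counts (RC), RPKM, RPM, and the authors' ST over NT fold, its log2, p-value and adjusted p-value. Another 3 columns of mean values were not used. Estimated counts were fractional (tolerance 1e-06) in 42.4% of genes in ST and 43.1% in NT; among the 9 genes, Csnk1a1, Btrc and Fbxl21 were whole in both libraries, and the other 6 were fractional and may share reads with other features. Isoforms were not separated.

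Counts were rounded, scaled by median-of-ratios size factors and compared on log2 normalised counts with a pseudocount of 0.5 for genes with a mean of at least 50. Intervals of a ratio are exact Clopper-Pearson intervals of the ST share of both counts; those of a ratio of ratios are exact conditional intervals of the odds ratio. Python 3.11.15, scipy 1.17.1 and edgeR 4.0.16 were used, and the calculations were tested on simulated counts. Exon lengths came from GENCODE vM1 on NCBIM37 (mm9), and all 9 identifiers matched its chromosomes. All 9 genes are reported, with all PER and CRY genes and up to 3 genes per direction of each partner list by size of ratio. The rule also names the most abundant marker of each list, and all 8 SCN markers are given besides. Some list genes that this rule names are not reported here. Older symbols matched 2 list genes, and another 2 had no row under the symbols used here. The genes and lists were chosen with earlier results of these data known. Alternatives were other scalings (total counts, TMM, upper quartile, centring on pan-neuronal markers), filters of 10 and 200, a pseudocount of 5, deposited RPM, a 99% interval, and other size and length rules.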

Additional observations from a re-analysis of the deposited data

How the results depend on the processing

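No paired analysis was possible because ST and NT have 1 library each, which also leaves no replicate to omit. Under the other scalings, the pseudocount of 5, the filters and the deposited RPM values, log2 ratios ran from -0.23 to -0.22 for Fbxl21 and from -0.08 to -0.07 for Csnk1a1, and all 9 genes kept their direction. The intervals of Fbxl21 and Csnk1a1 stayed below 1 under the other scalings, that of the RPM values among them, and at 99%, so the count remained 2; the pseudocount does not enter an interval, and all 9 genes pass each filter. The number of genes past the size rule was 0 at 1.5-fold and 3-fold, which follows from 0 at 1.2-fold. At 1.1-fold that number was 1, the gene being Fbxl21. The median log2 ratio of the set was -0.080 over the 3 genes with whole counts, since Csnk1a1 is then the middle gene. In the order of levels, 3 places in ST and 4 in NT were kept when counts were not divided by length, and 2 in each library per kilobase of GENCODE exons; the last 2 alternatives, whole counts and GENCODE length, were chosen after seeing the data, as was 1.1-fold. Scaling moved the median of all genes by at most 0.012. At these depths the counting interval of the fold was 0.763 to 0.949 for Fbxl21 and 0.946 to 1.02 for Gsk3b.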
